A study of Mus musculus with 3 samples.

Results

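Capillary endothelial cells (EC) of the aged mouse thymus were selected on their counts of unique molecular identifiers (UMIs), each of which stands for 1 RNA molecule. Each barcode had over 1000 detected genes and mitochondrial genes under 20% of its UMIs. It had at least 2 UMIs of Pecam1 and Cdh5 together and at least 3 of Cd36 and Gpihbp1 together. It had at most 1 UMI of the venous genes Selp, Ackr1 and Vwf, at most 1 of the arterial genes Gja5, Gja4 and Sox17, and 0 of Epcam and of Pdgfra. The rule took 1626 cells of 17677 called barcodes, of which 14956 passed the limits on genes and mitochondrial UMIs. The other 2774 barcodes with at least 2 UMIs of Pecam1 and Cdh5 are called other EC, although they also hold barcodes with Epcam or Pdgfra UMIs.

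The cells came from 3 single-cell RNA libraries of CD45− stroma from untreated C57BL/6 mice aged 20 months, from which CD45+ cells had been depleted with magnetic beads. Foxn1Lin female and Foxn1Lin male are Foxn1 lineage trace mice, in which Cre expressed from Foxn1, a gene of thymic epithelium, switches on a tdTomato reporter for good. The third library was from wild type males, without the trace. The protocol in the labels pools 10 to 15 thymi and names female mice for all libraries, whereas the sex field gives 2 male libraries, and the cell type field of the wild type library reads CD45-PECAM1+ while its title reads CD45-. The Y-linked gene Uty was at 0, 75.5 and 90.4 CPM (UMIs scaled to 1000000 in the sum of a class) in capillary EC, as the sex field has it. Each group had 1 library (n = 1), so libraries are set side by side without a test. Values in a row are always in the order Foxn1Lin female, Foxn1Lin male and wild type male.

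Capillary EC form the thin-walled vessels across which blood and tissue exchange gases, nutrients and lipids. CD36 takes up long-chain fatty acids and GPIHBP1 carries lipoprotein lipase to the luminal face, where the enzyme releases fatty acids from lipoproteins. Fatty acid binding proteins such as FABP4 then hold the lipid inside the cell. Capillaries respond to vascular endothelial growth factor (VEGF) through KDR (VEGFR2). In the thymus, cortical capillaries are tight vessels, while T cell progenitors enter and mature T cells leave mainly at larger, venous-type vessels, which display selectins and VCAM1. EC also send growth factors to thymic epithelium.

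The 3 libraries held 53366016, 33386621 and 61258534 UMIs in called barcodes. Capillary EC were shallower than other EC, at a median depth of 3356, 5020 and 4584 UMIs against 6832, 9865.5 and 10404. The upper limits of the rule count raw UMIs and so leave out deep cells. Of capillary barcodes, 0, 1 and 0 were shared by sequence between Foxn1Lin female and Foxn1Lin male, Foxn1Lin female and wild type male, and the male libraries. The summed level of 8 fibroblast markers was 706, 67.5 and 190.2 CPM in capillary EC, against 3553, 3745 and 4282 CPM in barcodes outside the called ones, which hold free RNA. Of those markers, Pdgfra was at 0 by the rule and the other 7 had UMIs in every library. The 8 epithelial markers summed to 247, 62.8 and 134 CPM, with Epcam at 0 by the rule and Krt19 at 0 in Foxn1Lin male, and the 8 T-lineage markers to 65.0, 62.8 and 246 CPM with none at 0. The 8 markers of vascular smooth muscle and pericytes summed to 581, 153 and 97.9 CPM, with Cspg4 at 0 in Foxn1Lin male, against 1124, 1372 and 735 CPM in free RNA. A Pdgfrb or Rgs5 UMI was found in 20.0%, 5.38% and 7.06% of capillary cells thinned to 2000 UMIs. The 5 erythroid genes stood at 5506, 47.7 and 1.86 CPM, against 3767, 42.5 and 41 CPM in free RNA. T-lineage markers summed to 736, 404 and 140 CPM in free RNA, below the capillary level in wild type male only. Epithelial markers summed to 2673, 4325 and 3930 CPM there. The part that free RNA and other cells have in the results was not tested.

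Capillary EC made up 45.9% of EC in Foxn1Lin female (1116 of 2433 cells, 95% Clopper-Pearson interval 43.9 to 47.9). They were 24.3% in the Foxn1Lin male library (229 of 941, 21.6 to 27.2) and 27.4% in the wild type one (281 of 1026, 24.7 to 30.2). These intervals, as all others here, cover counting error only, and with 1 library a group the female library cannot be told apart from the female sex. Other EC had more UMIs per cell in the male libraries, and the part of depth in the share was not tested beyond the thinning that follows. Cells with at least 2000 UMIs were also thinned at random to 2000 before the rule was applied, and shallower cells were left out. The shares were then 68.5% (1281 of 1869 EC), 47.8% (388 of 812) and 47.3% (399 of 843). The intervals of Foxn1Lin female did not overlap those of the male libraries on either scale, while those of the male libraries overlapped each other. Among EC without Epcam or Pdgfra UMIs the shares were 55.1%, 27.9% and 33.6%.

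**Figure D1:**
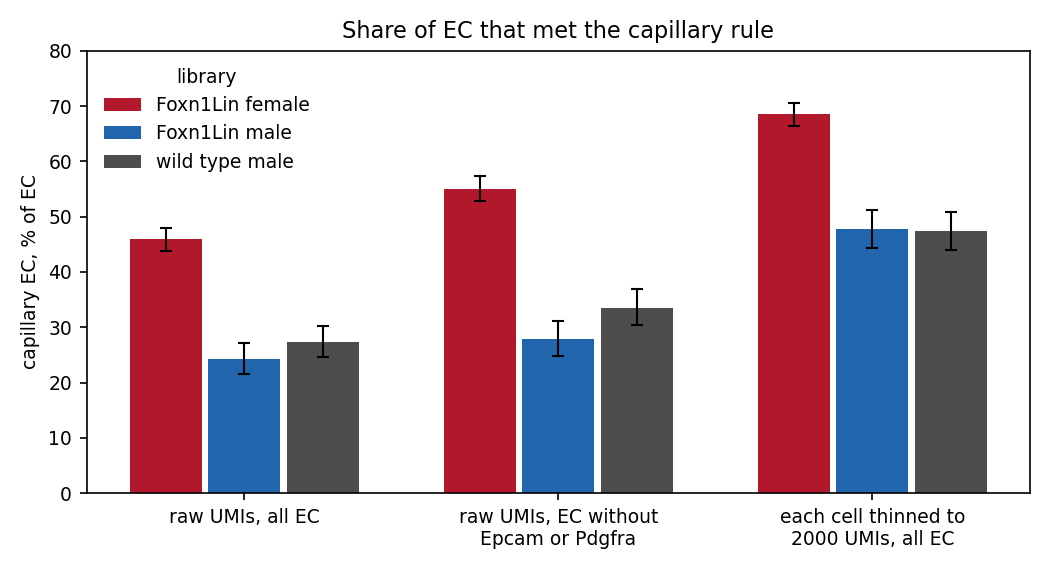
The share of EC (y axis, percent) that met the capillary rule is shown for each library as a bar with its 95% Clopper-Pearson interval, under 3 ways of counting (x axis). Foxn1Lin female stands highest under each, at 45.9%, 55.1% and 68.5%.

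The rule turned on Cd36 and Gpihbp1, whose levels are therefore a description. Cd36 stood at 2235, 3857 and 3759.6 CPM in capillary EC and at 1162, 1729 and 1242 CPM in other EC. Gpihbp1 stood at 1998, 2359.7 and 752 CPM in capillary EC and at 1182, 893 and 229 CPM in other EC, so wild type male had the lowest Gpihbp1 in both. Most members lay well past the threshold, with over 6 UMIs of both genes together in 966, 217 and 248 cells. Just inside it, 34, 2 and 7 cells had exactly 3 such UMIs, and just outside it, 25, 4 and 5 cells met every other limit with 2. In Foxn1Lin female, Fabp4 was at 4196 CPM in the former and 2171 CPM in the latter, and at 18123 CPM in the cells with over 6. The order across the threshold turned in the few cells of the male libraries, at 604 CPM inside and 1216 outside in Foxn1Lin male and at 1058 and 1164 in wild type male, with 23740 and 14068 CPM in the cells with over 6.

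Both genes were detected together in 95.5%, 92.1% and 83.6% of capillary cells, and Cd36 alone in 3.23%, 7.86% and 15.3%. The ratio of Cd36 to Gpihbp1 UMIs was 1.12 (95% interval 1.09 to 1.15), 1.63 (1.56 to 1.71) and 5.00 (4.70 to 5.32). Capillary EC of wild type male thus carried the most Cd36 UMIs for each Gpihbp1 UMI, and those of Foxn1Lin female the fewest. The same order held in other EC, at 0.983, 1.94 and 5.43. EC gated on the venous genes, the vein-gated EC of the comparisons that follow, had the highest ratio in every library, at 1.43, 4.08 and 11.6. The cells of the wild type library were thus gated with fewer Gpihbp1 UMIs than those of the others, and 1 library a group leaves no test of it.

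**Figure D2:**
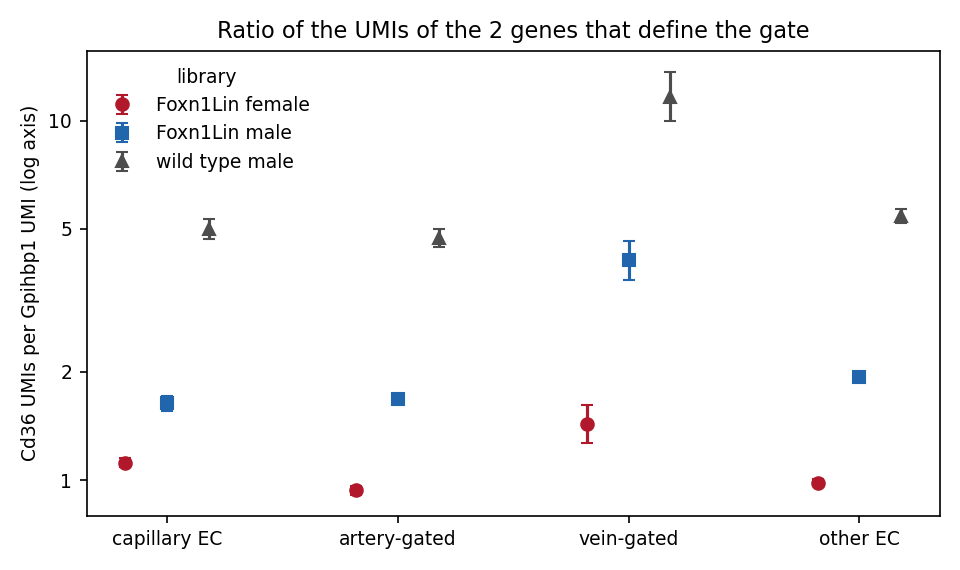
The number of Cd36 UMIs per Gpihbp1 UMI (y axis, log scale) is plotted for 4 EC classes (x axis), with 1 point per library and 95% intervals from counting error. Capillary EC of wild type male stand at 5.00, above those of the Foxn1Lin libraries at 1.12 and 1.63.

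Genes outside the rule were compared within libraries. UMIs were summed per library and class, and edgeR's quasi-likelihood test with the library as a block gave log2 differences, capillary EC minus the other class, with standard errors (SE). P-values were adjusted by Benjamini and Hochberg over all genes tested, and they measure the spread over 3 libraries of separate pools. Besides other EC, capillary EC were set against 535 vein-gated EC (at least 2 UMIs of Selp, Ackr1 and Vwf, at most 1 of Gja5, Gja4 and Sox17) and 1051 artery-gated EC (the reverse), both with 0 Epcam and Pdgfra. The comparisons share the capillary sums. The gene lists were chosen with earlier results of these data known, so counts of their members are a description. Against vein-gated EC 1318 of 11017 genes were higher (12%) and 1666 lower (15.1%) at an adjusted p under 0.05. Without Foxn1Lin male these were 470 and 885, and without wild type male 673 and 1094. Against other EC 834 of 14077 were higher (5.92%) and 1747 lower (12.4%), and without wild type male 466 were higher. Every count of list members that follows stands beside these shares of all genes.

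Of the 7 capillary markers, Cd36, Gpihbp1 and Cdh5 belong to the rule and 4 could be tested. Fabp4, a fatty acid binding protein, stood at 16839.8, 23032 and 12645 CPM in capillary EC, 5832, 4288 and 4267 in vein-gated EC and 10416, 10829.9 and 4982 in other EC. It was higher than in vein-gated EC by 1.63 ± 0.17, adjusted p = 4.15e-05 (log2, ± SE) and than in other EC by 1.09 ± 0.17, adjusted p = 0.00587. Its groups did not overlap in the first of these, and the lowest capillary value lay above the highest value of other EC too. Kdr, the main VEGF receptor, stood at 946, 626 and 1034 CPM against 321, 186 and 287 in vein-gated EC and was higher by 1.52 ± 0.11, adjusted p = 3.76e-06. Cldn5, a tight junction protein, stood at 1534, 791 and 659 CPM against 524, 58.8 and 88.6 in vein-gated EC and was higher by 2.43 ± 0.31, adjusted p = 1.58e-04. Its level in Foxn1Lin female was above the male ones in both classes. Against other EC its difference was 0.79 ± 0.16, adjusted p = 0.016, and without wild type male the adjusted p was 0.0546.

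Plvap, the protein of fenestral and caveolar diaphragms and the other marker of the list, went the other way. It stood at 157, 484 and 406 CPM in capillary EC, 833, 1658 and 1269.9 in vein-gated EC and 202, 834 and 497 in other EC. Capillary EC were below vein-gated EC in 3 of 3 libraries, with a log2 difference of -2.13 ± 0.14, adjusted p = 1.76e-06, and the groups did not overlap. Against other EC the difference was -0.43 ± 0.15, adjusted p = 0.0818, and without Foxn1Lin male it was -0.22 (adjusted p = 0.465). Of cells thinned to 2000 UMIs, 13.4%, 24.2% and 29.4% of capillary EC had a Plvap UMI, against 19.4%, 47.3% and 44.8% of other EC. Fabp4, Kdr and Cldn5 were thus on the side of the label of capillary endothelium against vein-gated EC, while Plvap went against it. Against artery-gated EC 0 of the 4 markers passed, so a difference from them was not shown, and against other EC without Epcam or Pdgfra Cldn5 did not pass (0.23, adjusted p = 0.37).

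**Figure D3:**
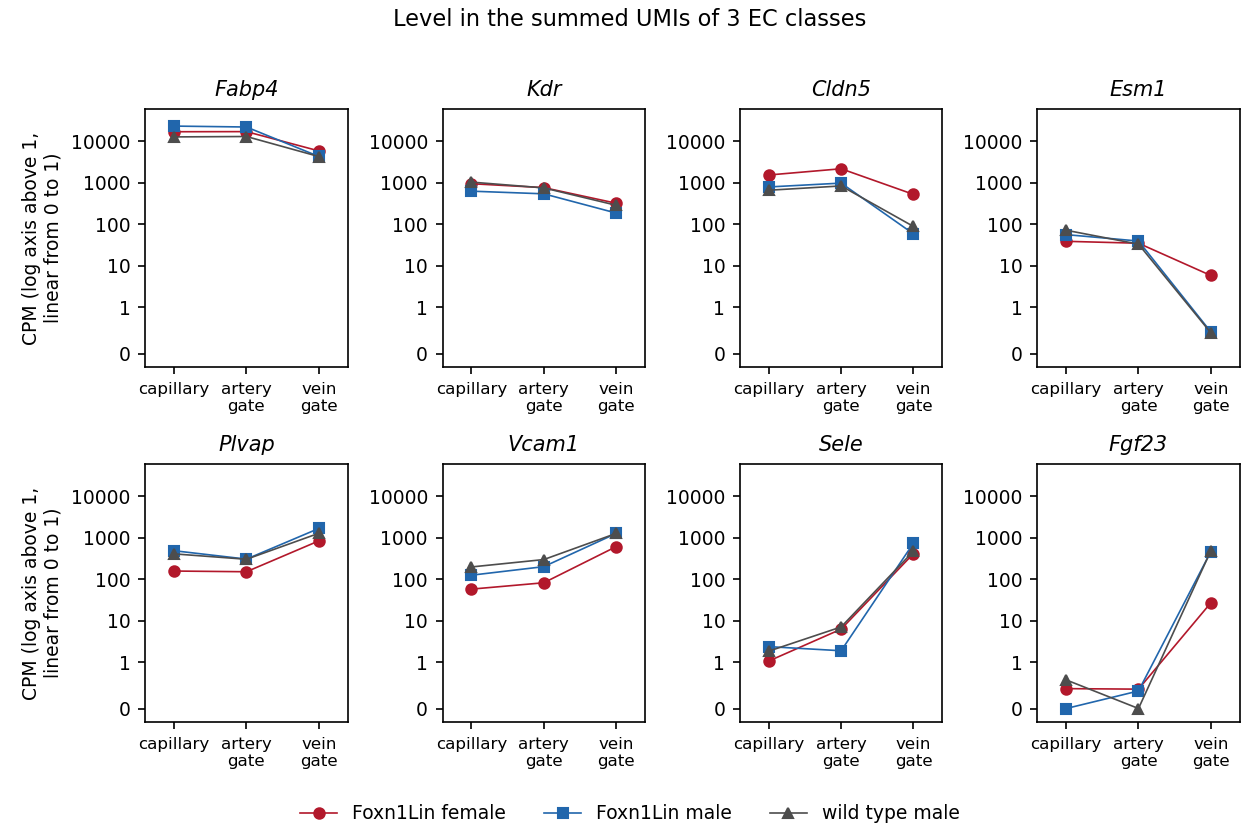
Levels of 8 genes in CPM (y axis, log above 1 and linear from 0 to 1) are shown in capillary, artery-gated and vein-gated EC (x axis), with 1 line and marker per library. Fabp4, Kdr, Cldn5 and Esm1 were lowest in vein-gated EC in every library, while Plvap, Vcam1, Sele and Fgf23 were highest there.

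Kdr and Esm1, which were higher in capillary EC than in vein-gated EC, and Sele, which was lower, are shown with the 250 bases before the start of the gene from RefSeq (GRCm38.p6), 5′ to 3′ on the strand of the gene. Capitals mark GGAA on either strand (printed as GGAA or TTCC), the core of the sites of ETS factors, a family that EC use widely.
Kdr, chr5:75978456-75978705, minus strand: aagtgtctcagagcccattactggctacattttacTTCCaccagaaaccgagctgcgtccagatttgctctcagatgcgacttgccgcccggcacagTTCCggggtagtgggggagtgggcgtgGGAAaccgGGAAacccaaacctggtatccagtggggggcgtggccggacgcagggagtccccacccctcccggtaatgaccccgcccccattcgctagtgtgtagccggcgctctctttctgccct
Esm1, chr13:113209409-113209658, plus strand: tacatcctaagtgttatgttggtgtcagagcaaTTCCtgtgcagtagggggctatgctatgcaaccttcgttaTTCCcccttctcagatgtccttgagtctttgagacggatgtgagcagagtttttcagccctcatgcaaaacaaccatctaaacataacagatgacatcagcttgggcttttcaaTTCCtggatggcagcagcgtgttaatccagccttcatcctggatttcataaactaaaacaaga
Sele, chr1:164047984-164048233, plus strand: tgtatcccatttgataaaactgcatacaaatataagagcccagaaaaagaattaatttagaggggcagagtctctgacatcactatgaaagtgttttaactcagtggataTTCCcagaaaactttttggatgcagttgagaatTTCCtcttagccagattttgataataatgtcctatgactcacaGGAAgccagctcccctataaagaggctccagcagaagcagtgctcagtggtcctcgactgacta
The windows hold 4, 3 and 3 cores. Windows were found for 17 of the 25 genes in the capillary and microvascular lists, and 23 of their 24 windows held at least 1 core (95.8%). Of all 32851 windows searched, 93.4% did, a share near that of the capillary genes.

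A list of 18 other genes of microvascular EC moved largely with the markers. Against vein-gated EC 15 of the 18 were higher and 2 lower (median 1.28, over all genes 0.043), and against other EC 15 were higher and 0 lower (median 1.12, over all genes 0.0025). These were 9 higher and 1 lower (Meox1) against other EC without Epcam or Pdgfra (median 0.59). Against artery-gated EC 0 of the 18 were higher and 0 lower (median 0.011), so a difference from them was not shown. The same counts of 0 held there for the lists of lipid, VEGF and caveolae genes that follow (medians 0.0098, -0.077 and -0.13). Rgcc, a regulator of cell cycle and of angiogenesis, stood at 836, 1491 and 901 CPM against 171, 32.5 and 61.6 in vein-gated EC, a difference of 3.55 ± 0.45, adjusted p = 1.45e-04. Tcf15, a transcription factor of fatty acid-handling endothelium, was at 494, 221 and 161 CPM against 121, 11.3 and 11.2, a difference of 2.91 ± 0.34, adjusted p = 8.87e-05. Btnl9, a butyrophilin-like surface protein, was at 357, 308 and 454 CPM against 81.0, 9.89 and 22.5, a difference of 3.43 ± 0.41, adjusted p = 1.09e-04. In all 3 genes vein-gated EC of Foxn1Lin female were the highest of their class, so the gap was wider in the male libraries.

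Aqp7, a channel for water and glycerol, Timp4, an inhibitor of metalloproteinases, Rbp7, a retinol binding protein, Kcna5, a potassium channel, and Ramp3, a partner of the adrenomedullin receptor, were higher than in vein-gated EC by 3.25, 3.55, 3.44, 2.88 and 3.12 in log2 (adjusted p from 3.51e-05 to 8.71e-04). Timp4 varied widely among the libraries, at 377, 885 and 159 CPM in capillary EC. Car4, the carbonic anhydrase of capillary surfaces, was higher by 1.28 ± 0.33, adjusted p = 0.013. The 2 genes that were lower were the water channel Aqp1 (-0.94 ± 0.20, adjusted p = 0.00431) and the homeobox factor Meox1 (-1.80 ± 0.11, adjusted p = 1.29e-06). Aqp1 was abundant in both classes, at 1619, 2136 and 1092 CPM in capillary EC and 2047, 3180.3 and 2604 in vein-gated EC. With Foxn1Lin female left out, the log2 difference of Car4 was 0.84. Leaving out Foxn1Lin male, the call of Car4 (adjusted p = 0.0861) was lost. In the fit without wild type male, the log2 difference of Aqp1 was -0.62.

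Genes of fatty acid uptake and storage followed the same course in part. Of 18 tested members outside the rule, 9 were higher and 3 lower than in vein-gated EC (median 0.67), and of 19 tested against other EC 7 were higher and 3 lower (median 0.33). The counts against other EC without Epcam or Pdgfra were 5 and 1 (median 0.21). Lpl, lipoprotein lipase, stood at 408, 1285 and 312 CPM against 79.8, 79.1 and 27.4 in vein-gated EC and was higher by 3.15 ± 0.26, adjusted p = 6.75e-06. Foxn1Lin male had the highest Lpl of the capillary sums, and no capillary value overlapped the vein-gated ones. Pparg, the transcription factor that switches on lipid storage genes, stood at 296, 551 and 395 CPM against 71.6, 72.0 and 94.5 and was higher by 2.16 ± 0.17, adjusted p = 5.69e-06.

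Plin2, which coats lipid droplets, was higher than in vein-gated EC by 2.04 ± 0.16, adjusted p = 5.09e-06. Angptl4, an inhibitor of lipoprotein lipase, was higher by 1.95 ± 0.43, adjusted p = 0.00562, and Acsl1, which activates fatty acids, by 1.61 ± 0.26, adjusted p = 8.11e-04, although Acsl1 stood at 0.75 and did not pass (adjusted p = 0.221) when cells were thinned before the gates. The lower genes were the lipoprotein receptor Vldlr (-3.71 ± 0.73, adjusted p = 0.00286), the endothelial lipase Lipg (-2.56 ± 0.22, adjusted p = 8.79e-06) and Apold1 (-0.78 ± 0.23, adjusted p = 0.0255). Lipid uptake genes thus did not move as a single group. After Foxn1Lin female was left out, the log2 difference of Vldlr was -6.41. Where Foxn1Lin male was not used, the call of Apold1 (adjusted p = 0.241) was lost and the log2 difference of Angptl4 was 1.23. When wild type male was dropped, the calls of Angptl4 (adjusted p = 0.082), Vldlr (adjusted p = 0.0716) and Apold1 (adjusted p = 0.254) were lost.

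**Figure D4:**
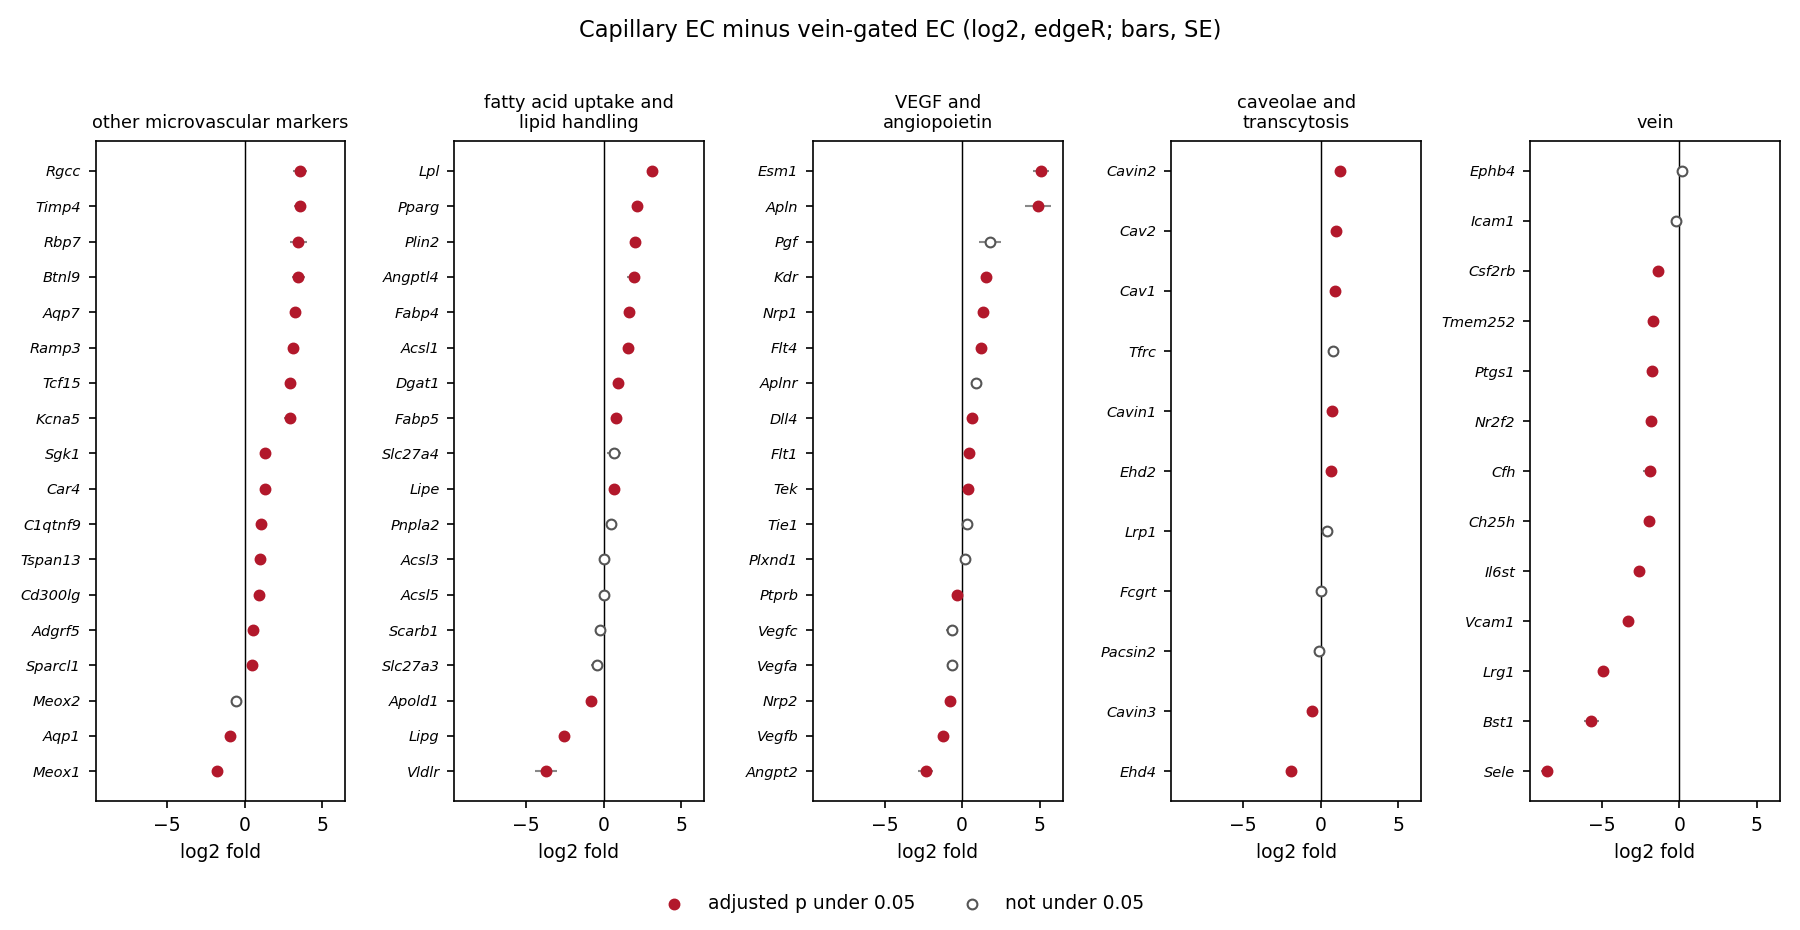
Fitted log2 differences, capillary EC minus vein-gated EC (x axis), are plotted with SE for the tested genes of 5 lists (rows). Red points passed an adjusted p of 0.05. Of the microvascular list 15 of 18 lie to the right and passed, while of the vein list 11 of 13 lie to the left and passed. Vein-gated EC were themselves chosen on other vein genes.

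Among 18 genes of VEGF and angiopoietin signalling, 8 were higher and 4 lower than in vein-gated EC (median 0.41), and 11 were higher and 3 lower than in other EC (median 0.72). Set against other EC without Epcam or Pdgfra, 3 were higher (Kdr, Nrp1 and Esm1) and 2 lower (Angpt2 and Vegfc), with a median of 0.21. Beside Kdr, the coreceptor Nrp1 stood at 807, 945 and 1243 CPM against 454, 251 and 350.1 and was higher by 1.32 ± 0.18, adjusted p = 2.18e-04. Flt1, Flt4 and Tek were higher by 0.46, 1.22 and 0.36 (adjusted p = 0.0108, 0.0225 and 0.0468). Based on the libraries other than Foxn1Lin female, the log2 difference of Flt4 was 2.07. With Foxn1Lin male left out, the calls of Flt1 (adjusted p = 0.205), Flt4 (adjusted p = 0.208) and Tek (adjusted p = 0.245) were lost. Leaving out wild type male, the calls of Flt1 (adjusted p = 0.0541), Flt4 (adjusted p = 0.217) and Tek (adjusted p = 0.173) were lost.

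Esm1 (endocan), which VEGF induces in tip cells of growing vessels, had the largest positive difference from vein-gated EC among genes that passed with at least 100 UMIs, 5.08 ± 0.50, adjusted p = 2.81e-05. It stood at 38.9, 56.4 and 71.9 CPM in capillary EC, 5.87, 0.471 and 0.450 in vein-gated EC and 21.4, 14.01 and 9.93 in other EC. Few cells carried it, with a UMI in 3.52%, 3.14% and 5.58% of thinned capillary cells and in 3.62%, 1.27% and 1.88% of other EC. Artery-gated EC had it in 5.11%, 2.4% and 4.86% of thinned cells, and the difference in level from them did not pass (0.50 ± 0.26, adjusted p = 0.639). Apln, the ligand of the apelin receptor and another tip cell gene, stood at 18.7, 22.2 and 31.6 CPM against 2.35, 0 and 0.450. It had 166 UMIs in capillary and 3 in vein-gated EC, a capillary to vein-gated ratio of 7.98 in Foxn1Lin female (87 against 2 UMIs, 95% counting interval 2.14 to 66.9) and of 119.5 over the male libraries (79 against 1, 20.8 to 4780), and passed the test (adjusted p = 0.00117). Against other EC Apln did not pass (1.44 ± 0.57, adjusted p = 0.127), but without Foxn1Lin female it was higher by 2.64 (adjusted p = 5.51e-06), and without wild type male the difference was 0.81 (adjusted p = 0.424). The lower members were Angpt2, an antagonist of the TEK receptor (-2.36 ± 0.46, adjusted p = 0.00265), Nrp2 (-0.77 ± 0.11, adjusted p = 4.62e-04), Vegfb (-1.26 ± 0.27, adjusted p = 0.00517) and the phosphatase Ptprb (-0.33 ± 0.11, adjusted p = 0.0381). In the fit without Foxn1Lin female, the call of Ptprb (adjusted p = 0.0877) was lost. After Foxn1Lin male was left out, the calls of Vegfb (adjusted p = 0.0735) and Ptprb (adjusted p = 0.157) were lost. Where wild type male was not used, the call of Ptprb (adjusted p = 0.166) was lost.

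Of 11 genes of caveolae and transcytosis, 5 were higher and 2 lower than in vein-gated EC (median 0.69). Cav1, the coat protein of caveolae, stood at 1052, 796 and 787 CPM against 577, 274 and 397 and was higher by 0.93 ± 0.14, adjusted p = 5.96e-04. Cav2, Cavin1, Cavin2 and Ehd2 were higher by 0.99, 0.75, 1.22 and 0.69, while Cavin3 and the trafficking ATPase Ehd4 were lower, at -0.57 and -1.92 in log2 (adjusted p at most 0.00619). Of 15 junction genes 4 were higher (Cldn5, Afdn, Ctnnb1 and Podxl) and 2 lower (Plvap and Cd34), with a median of 0.24. When Foxn1Lin male was dropped, the calls of Cavin3 (adjusted p = 0.0603) and Ctnnb1 (adjusted p = 0.0567) were lost. Based on the libraries other than wild type male, the calls of Cavin3 (adjusted p = 0.055) and Ctnnb1 (adjusted p = 0.146) were lost.

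Of 17 basement membrane genes 7 were higher and 4 lower than in vein-gated EC (median 0.26), beside 12% and 15.1% of all genes. Col13a1, a transmembrane collagen, stood at 19.1, 73.1 and 50.2 CPM against 5.87, 4.24 and 0.450 in vein-gated EC and was higher by 3.94 ± 0.46, adjusted p = 8.10e-05. Col15a1, a collagen around vessels, stood at 60.7, 79.4 and 194 CPM against 347, 569 and 692 and was lower, at -2.58 ± 0.16, adjusted p = 1.34e-06. The other lower genes were Col18a1, Lama5 and Lamc1. The integrin chains Itga1 and Itga6 were higher by 0.75 and 1.07. Of 16 solute transporters 6 were higher and 5 lower (median 0.18), beside the same shares of all genes. Slc28a2, a carrier of purine nucleosides, stood at 173, 126 and 165 CPM against 38.7, 10.8 and 19.8 and was higher by 2.72 ± 0.22, adjusted p = 6.39e-06, while Slc2a1, the glucose transporter GLUT1, was lower, at -2.10 ± 0.14, adjusted p = 1.97e-06. The other lower carriers were Slc2a3, Slc7a1, Abcg2 and Slc29a1. With Foxn1Lin female left out, the calls of Col18a1 (adjusted p = 0.476) and Slc7a1 (adjusted p = 0.0734) were lost. Leaving out Foxn1Lin male, the calls of Col18a1 (adjusted p = 0.0773), Lama5 (adjusted p = 0.132), Lamc1 (adjusted p = 0.29), Slc2a3 (adjusted p = 0.129) and Slc7a1 (adjusted p = 0.174) were lost. In the fit without wild type male, the calls of Lamc1 (adjusted p = 0.0576) and Slc2a3 (adjusted p = 0.108) were lost.

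Most vein genes were lower in capillary EC, and genes of leukocyte adhesion were in part. The vein gate took cells on Selp, Ackr1 and Vwf, which the capillary rule limited. The differences in vein genes may follow from these gates and are a description. Of 13 vein genes outside the rule 0 were higher and 11 lower than in vein-gated EC (median -1.92), and 8 were lower than in other EC (median -0.72). Sele, E-selectin, stood at 1.08, 2.38 and 1.86 CPM in capillary EC against 413, 737 and 472 in vein-gated EC, a difference of -8.52 ± 0.37, adjusted p = 1.42e-07. Vcam1, which binds the integrins of lymphocytes, stood at 57.6, 125 and 197 CPM against 605, 1257 and 1260.5, a difference of -3.32 ± 0.15, adjusted p = 1.47e-07. Lrg1, a secreted glycoprotein of venules, stood at 21.9, 150.16 and 29.7 CPM against 988, 2383 and 756, a difference of -4.89 ± 0.24, adjusted p = 2.29e-07. The groups did not overlap in any of the 3 genes. Nr2f2, the transcription factor that sets venous identity, was lower by less, at -1.82 ± 0.21, adjusted p = 9.04e-05.

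Of 16 genes of adhesion and egress outside the rule, 1 was higher (Podxl) and 7 lower than in vein-gated EC (median -0.27). Against other EC 4 were higher (Icam2, Podxl, S1pr1 and Jam2) and 3 lower (Sele, Vcam1 and Glycam1, the last at -4.44 in log2), with a median of 0.20, and against other EC without Epcam or Pdgfra 0 were higher and 4 lower (median -0.23). Glycam1, a ligand of L-selectin in high endothelial venules, was lower and stood at 35.9, 0.794 and 0 CPM against 7477, 47.5 and 259.6, and at 449.9, 18.9 and 10.5 CPM in free RNA, a difference of -7.89 ± 0.32, adjusted p = 1.16e-07. Spns2 and Sphk1, which export and make sphingosine-1-phosphate, the signal that draws mature T cells into blood, were lower at -0.93 and -1.36. The receptor S1pr1 was at 427, 512 and 451 CPM and did not pass (adjusted p = 0.155). After Foxn1Lin male was left out, the call of Sphk1 (adjusted p = 0.166) was lost. Where wild type male was not used, the call of Sphk1 (adjusted p = 0.105) was lost. When Foxn1Lin female was dropped, the log2 difference of Glycam1 was -7.23 in the comparison with other EC. Based on the libraries other than wild type male, the call of S1pr1 (adjusted p = 0.0532) was lost in the comparison with other EC.

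Some genes had almost no UMIs in capillary EC. Fgf23, a hormone of phosphate balance, had 3 UMIs over all capillary EC and 2066 over vein-gated EC, a vein-gated to capillary ratio of 62.7 in Foxn1Lin female (23 against 2 UMIs, 95% counting interval 15.5 to 549) and of 1350.4 over the male libraries (2043 against 1, 242 to 53362). Its levels in vein-gated EC were 27.0, 459 and 481 CPM, low in Foxn1Lin female. Adarb2, a relative of RNA editing enzymes, had 0 UMIs in capillary EC and 273 in vein-gated EC. It was at least 30.9-fold higher in the latter within Foxn1Lin female and at least 56.4-fold over the male libraries, against a floor of 3 counts in each. Ptafr, the receptor of platelet-activating factor, had 3 against 308 UMIs, a ratio of 36.4 (10.8 to 191) in Foxn1Lin female and of at least 63.5 over the male libraries, with 0 capillary UMIs. F5, coagulation factor V, stood at 1.51, 1.59 and 0 CPM against 90.3, 308 and 308 (-7.34 ± 0.37, adjusted p = 2.33e-07), and Csf3, which drives neutrophil production, at 3.23, 6.36 and 1.86 against 235, 369 and 207 (-6.33 ± 0.26, adjusted p = 1.17e-07). Olr1, a receptor of oxidized lipoprotein, and Cytl1 were lower at -7.08 and -6.42.

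On the higher side, Igfbp3, which binds insulin-like growth factors, stood at 71.8, 389 and 333 CPM against 16.4, 13.2 and 7.65 in vein-gated EC and was higher by 4.38 ± 0.36, adjusted p = 7.39e-06. Adora2a, an adenosine receptor, and Pth1r, the receptor of parathyroid hormone, were higher by 3.77 and 3.797. Tmem182 stood at 50.3, 44.5 and 48.3 CPM against 5.87, 0 and 2.25 and was higher by 4.29 ± 0.48, adjusted p = 6.20e-05. Gm12002, a transcript without a named product, was the most abundant in Foxn1Lin female of the 12 genes with the largest differences above other EC, at 163, 135 and 122 CPM against 66.4, 29.9 and 22.4, and was higher by 1.98 ± 0.21, adjusted p = 0.00185. Vwa3a was higher there by 1.72 ± 0.16, adjusted p = 0.00162. Trbc2, a chain of the T cell receptor, was also higher than in vein-gated EC (3.85 ± 0.84, adjusted p = 0.00543), at 17.9, 35.0 and 193 CPM and with 204, 71.0 and 48.8 CPM in free RNA, and without wild type male its adjusted p was 0.226. Of 6 tested T-lineage markers 3 were higher (Cd3e, Cd8a and Cd8b1, list median 1.57), and the list summed to 65.0, 62.8 and 246 CPM in capillary EC against 46.9, 12.7 and 56.2 in vein-gated EC. The myeloid marker Tyrobp was higher as 1 of 4 tested, and of 8 smooth muscle and pericyte markers Rgs5 was higher and Tagln lower (median 0.28). Smooth muscle and pericyte markers summed to 514, 306 and 374 CPM in vein-gated EC. The part of these cells in the differences was not tested. With at least 5 UMIs of Cd36 and Gpihbp1, Trbc2 (1.71, adjusted p = 0.271), Cd3e (1.20, adjusted p = 0.437) and Cd8b1 (0.30, adjusted p = 0.816) did not pass. With Foxn1Lin male left out, the calls of Cd8a (adjusted p = 0.175) and Cd8b1 (adjusted p = 0.087) were lost. Leaving out wild type male, the calls of Cd3e (adjusted p = 0.115), Cd8a (adjusted p = 0.486) and Cd8b1 (adjusted p = 0.466) were lost.

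Other EC held barcodes with Epcam or Pdgfra UMIs, and the summed level of 8 epithelial markers was 1361, 1082 and 2394 CPM in them. Among the genes with the largest differences below other EC was Jchain, a plasma cell transcript (2.80, 0.794 and 0 against 122, 90.1 and 299 CPM). When only other EC without Epcam and Pdgfra were used, 252 of 12629 genes were higher (2%) and 625 lower (4.95%), and 636 of these 877 calls were among the 2581 calls against all other EC with the same direction. In that comparison Fabp4 (0.55), Kdr (0.82), Rgcc (0.91), Lpl (1.02), Pparg (0.99), Esm1 (1.31), Col13a1 (1.61) and Bmp6 (1.08) were still higher in log2. Plvap was lower there, at -1.01, adjusted p = 0.00161, whereas Cldn5 (0.23, adjusted p = 0.37) and Flt1 (0.33, adjusted p = 0.0604) did not pass. When cells were thinned to 2000 UMIs before the gates, Esm1 and Col13a1 did not pass against other EC (adjusted p = 0.349 and 0.367).

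Few genes passed the test between capillary EC and artery-gated EC. Of 11017 genes 0 were higher (0%) and 2 were lower (0.0182%) by edgeR, Sox17 and Gja4, and both belong to the artery gate. At an unadjusted p under 0.05 there were 941 genes, and DESeq2 called 2 higher and 26 lower. Without Foxn1Lin female 15 were higher and 37 lower. Of the listed genes outside the gate, Fbln5, an elastic fibre protein, came nearest, at 51.6, 69.1 and 63.8 CPM against 95.2, 161 and 155 (-1.19 ± 0.17, adjusted p = 0.0598). Fabp4 differed by -0.05 ± 0.17, Kdr by 0.27 ± 0.11 and Plvap by 0.33 ± 0.14 in log2. Erythroid transcripts summed to 5346, 2521 and 2100 CPM in artery-gated EC, above those of capillary EC of the male libraries.

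The artery gate did not limit Cd36 or Gpihbp1, and 1026 of 1051 artery-gated cells (97.6%) had at least 3 UMIs of both together. When the gate was limited to the other 25 cells (12, 7 and 6 per library), a comparison added after the data were seen, 252 of 9802 genes were higher and 145 lower in capillary EC. The median log2 difference over all genes was 0.35 in that fit, against -0.0014 with the full gate, so the counts by direction sit on an offset. Stmn2, Sema3g, Bmx and the other artery genes were also set against other EC without Epcam or Pdgfra. These hold the 1051 artery-gated cells, while the rule limits Gja5, Gja4 and Sox17 in capillary EC. The differences in artery genes may thus follow from the gates and are a description. Of 14 tested artery genes 8 were lower and 2 higher (median -0.49, over all genes 0.010). The lower ones included Eln, elastin (-1.21), Mgp, an inhibitor of calcification (-1.61), and the Notch ligand Jag1 (-0.71). The higher ones were Efnb2 (0.60) and the chemokine Cxcl12 (0.62).

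Against vein-gated EC, 7 of 14 tested artery genes were higher and 4 lower (median 0.62). Cxcl12, which holds and attracts T cell progenitors, stood at 1356, 1179.8 and 1235 CPM against 482, 153 and 256 and was higher by 2.01 ± 0.22, adjusted p = 6.20e-05. Efnb2, the arterial ephrin, was higher by 2.06 ± 0.29, adjusted p = 3.39e-04 and Hey1, a Notch target, by 1.87 ± 0.34, adjusted p = 0.00199. Of 13 Notch genes 6 were higher and 2 lower (median 0.25). Dll4, the ligand that T cell progenitors read on thymic epithelium and that EC also make, stood at 116, 123 and 120.18 CPM against 68.0, 61.2 and 72.9 and was higher by 0.64 ± 0.12, adjusted p = 0.00282. Notch4 and Hes1 were higher by 1.32 and 1.67, while Jag1 (-0.65) and Dll1 (-1.43) were lower. Of the artery genes, Mgp, Fbln2 and Eln were lower besides Jag1. In the fit without Foxn1Lin male, the calls of Dll4 (adjusted p = 0.0661), Jag1 (adjusted p = 0.156) and Mgp (adjusted p = 0.19) were lost. After wild type male was left out, the calls of Jag1 (adjusted p = 0.0923) and Mgp (adjusted p = 0.0745) were lost.

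Of 21 tested factors through which EC can act on thymic epithelium and T cell progenitors, 4 were higher and 4 lower than in vein-gated EC (median 0.11), and of 23 tested against other EC 7 were higher and 12 lower (median -1.18). Of 21 tested against other EC without Epcam or Pdgfra 3 were higher and 6 lower (median -0.18). The shares of all genes higher and lower in these 3 comparisons were 12% and 15.1%, 5.92% and 12.4%, and 2% and 4.95%. Bmp6, a bone morphogenetic protein that also regulates iron, stood at 425, 479 and 414 CPM in capillary EC, 179.5, 66.4 and 131 in vein-gated EC and 174, 140.3 and 153 in other EC. It was higher than in vein-gated EC by 1.68 ± 0.24, adjusted p = 3.53e-04 and than in other EC by 1.54 ± 0.13, adjusted p = 0.00105. The capillary values of Bmp6 were close to each other and did not overlap those of vein-gated or other EC. Of thinned cells, 46.4%, 43.9% and 41.6% of capillary EC had a Bmp6 UMI, against 25.1%, 20.1% and 19.8% of other EC and 33.1%, 34.4% and 34.6% of artery-gated EC, against which the difference in level did not pass (0.57 ± 0.22, adjusted p = 0.516).

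Bmp4, the EC factor known to help thymic epithelium regrow, went the other way, at 13.6, 7.94 and 1.86 CPM in capillary EC against 38.7, 73.0 and 48.6 in vein-gated EC, a difference of -2.93 ± 0.41, adjusted p = 3.20e-04. Kitl, the ligand of KIT on early progenitors, was abundant at 921, 1129.8 and 1299.7 CPM and higher than in other EC by 0.65 ± 0.14, adjusted p = 0.018, but did not pass against vein-gated EC (0.11 ± 0.11, adjusted p = 0.505) or against other EC without Epcam or Pdgfra (0.13, adjusted p = 0.467). Pdgfb, which recruits pericytes, was higher than in vein-gated EC by 1.10 ± 0.17, adjusted p = 5.87e-04 and Tgfb1 by 0.96 ± 0.19, adjusted p = 0.00321. Edn1, endothelin, and Il6 were lower, at -0.71 and -0.78. Where Foxn1Lin female was not used, the call of Edn1 (adjusted p = 0.0617) was lost and the log2 difference of Il6 was -0.49. When Foxn1Lin male was dropped, the calls of Tgfb1 (adjusted p = 0.0586) and Edn1 (adjusted p = 0.129) were lost. Based on the libraries other than wild type male, the calls of Tgfb1 (adjusted p = 0.0612) and Il6 (adjusted p = 0.0892) were lost. With wild type male left out, the call of Kitl (adjusted p = 0.0814) was lost in the comparison with other EC.

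Of antigen presentation genes 1 of 15 was higher (Psmb10) and 7 lower than in vein-gated EC (median -0.42). The class II invariant chain Cd74 stood at 119, 100.1 and 293 CPM against 338, 899.6 and 1036 in vein-gated EC and 1321, 3747 and 2394 in free RNA, a difference of -2.34 ± 0.28, adjusted p = 1.02e-04. H2-Aa and the class I regulator Nlrc5 differed by -1.64 and -1.42. The class I gene H2-D1 was at 1130.3, 2215 and 1557 CPM and did not pass (adjusted p = 0.468). Of 20 interferon response genes 8 were higher and 4 lower (median 0.29), led by the surface proteins Ly6c1 (2189, 3455 and 1526 CPM against 814, 627 and 455, 1.67 ± 0.18, adjusted p = 4.63e-05) and Ly6a (0.82). The other higher ones were Ifit2, Ifit3, Irf1, Irf7, Ly6e and Xaf1, and the lower ones Ifitm2, Ifitm3, Iigp1 and Gbp4. DESeq2 did not call Ifit3 or Xaf1 (adjusted p = 0.105 and 0.122). Leaving out Foxn1Lin female, the calls of Ifit3 (adjusted p = 0.0641) and Xaf1 (adjusted p = 0.0976) were lost. In the fit without Foxn1Lin male, the calls of Psmb10 (adjusted p = 0.137), Ifit2 (adjusted p = 0.105), Ifit3 (adjusted p = 0.215), Irf1 (adjusted p = 0.189), Irf7 (adjusted p = 0.192), Ly6e (adjusted p = 0.217), Xaf1 (adjusted p = 0.277), Ifitm2 (adjusted p = 0.254), Ifitm3 (adjusted p = 0.253), Iigp1 (adjusted p = 0.224) and Gbp4 (adjusted p = 0.129) were lost. After wild type male was left out, the calls of Psmb10 (adjusted p = 0.0635), Ly6e (adjusted p = 0.135), Ifitm2 (adjusted p = 0.206), Ifitm3 (adjusted p = 0.187) and Iigp1 (adjusted p = 0.162) were lost.

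Of 15 genes of shear stress and vascular tone 5 were higher and 5 lower than in vein-gated EC (median -0.12), beside 12% and 15.1% of all genes. Klf2, the transcription factor that flow induces, stood at 901, 1301 and 602 CPM against 392, 434 and 229 and was higher by 1.20 ± 0.12, adjusted p = 2.75e-05. Ednrb, an endothelin receptor, stood at 160.03, 288 and 195 CPM against 52.8, 10.4 and 6.30 and was higher by 3.42 ± 0.46, adjusted p = 2.20e-04. Ace, angiotensin-converting enzyme, was lower, at -1.69 ± 0.17, adjusted p = 3.47e-05, as was the adrenomedullin receptor Calcrl, at -1.93 ± 0.14, adjusted p = 3.86e-06. The other higher genes were Klf4, Thbd and Adm, and the other lower ones Edn1, Ece1 and Slco2a1. Of 25 endothelial transcription factors 7 were higher and 7 lower (median -0.01), beside the same shares of all genes. Beside Pparg and Tcf15, Tbx3 (2.37) and Gata2 (0.99) were higher, and Foxc1 (-2.01) and Mecom (-0.65) were lower. Where Foxn1Lin female was not used, the call of Edn1 (adjusted p = 0.0617) was lost. When Foxn1Lin male was dropped, the calls of Klf4 (adjusted p = 0.0614), Thbd (adjusted p = 0.0861), Edn1 (adjusted p = 0.129) and Mecom (adjusted p = 0.0645) were lost. Based on the libraries other than wild type male, the calls of Thbd (adjusted p = 0.0906) and Mecom (adjusted p = 0.0563) were lost.

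Genes that answer to tissue digestion differed in part, beside shares of all genes of 12% higher and 15.1% lower than in vein-gated EC. Of 14 immediate early genes 4 were higher (Junb, Ier2, Dusp1 and Btg2) and 1 lower (Ier3) than in vein-gated EC (median 0.36), and of 8 heat shock genes 6 were higher (Hspa1a, Hspa1b, Hsp90aa1, Hsph1, Hspb1 and Hspd1) and 0 lower (median 0.55). DESeq2 did not call Hsp90aa1, Hspd1 or Hsph1 (adjusted p = 0.061, 0.23 and 0.171). Hspa1a stood at 342, 485 and 362 CPM against 122, 120.04 and 175 and was higher by 1.33 ± 0.18, adjusted p = 2.13e-04. Against other EC 1 heat shock gene was higher (Hspb1) and 1 lower (Hspe1), and against other EC without Epcam or Pdgfra 0 of 8 passed. The part of digestion in the differences of Klf2 and the other flow genes was not tested. With Foxn1Lin female left out, the calls of Hsp90aa1 (adjusted p = 0.0655) and Hspd1 (adjusted p = 0.224) were lost. Leaving out Foxn1Lin male, the calls of Junb (adjusted p = 0.134), Hsp90aa1 (adjusted p = 0.142), Hsph1 (adjusted p = 0.0687) and Hspd1 (adjusted p = 0.0597) were lost. In the fit without wild type male, the calls of Ier3 (adjusted p = 0.0717), Hsp90aa1 (adjusted p = 0.198), Hsph1 (adjusted p = 0.354) and Hspd1 (adjusted p = 0.291) were lost. After Foxn1Lin male was left out, the calls of Hspb1 (adjusted p = 0.0584) and Hspe1 (adjusted p = 0.0825) were lost in the comparison with other EC. Where wild type male was not used, the call of Hspb1 (adjusted p = 0.0623) was lost in the comparison with other EC.

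Dividing cells were few. Of thinned capillary cells 3.13%, 1.35% and 1.86% had a Mki67 or Top2a UMI, against 2.99%, 1.42% and 3.09% of other EC, with overlapping intervals in each library. Mki67 stood at 9.03, 9.53 and 25.4 CPM in capillary EC and 27.1, 24.8 and 32.4 in free RNA. Of 9 cell cycle genes 0 were higher and 2 lower than in vein-gated EC (Tyms and Ccnd1), with a median of 0.68. Of 14 genes of senescence and inflammatory secretion 4 were higher (Igfbp3, Gdf15, Cdkn1a and Cdkn1c) and 3 lower (Igfbp4, Il6 and Timp1), with a median of 0.46. The shares of all genes against vein-gated EC were 12% higher and 15.1% lower. Cdkn1c, an inhibitor of the cell cycle (p57), stood at 282, 127 and 75.6 CPM against 44.6, 9.41 and 10.8 and was higher by 2.85 ± 0.22, adjusted p = 5.02e-06, and Cdkn1a (p21) was higher by 0.59 ± 0.18, adjusted p = 0.0311. When Foxn1Lin female was dropped, the calls of Tyms (adjusted p = 0.214) and Cdkn1a (adjusted p = 0.0621) were lost and the log2 difference of Il6 was -0.49 and Timp1 was -4.08. Based on the libraries other than Foxn1Lin male, the calls of Tyms (adjusted p = 0.234), Gdf15 (adjusted p = 0.531), Cdkn1a (adjusted p = 0.272) and Timp1 (adjusted p = 0.0732) were lost. With wild type male left out, the call of Il6 (adjusted p = 0.0892) was lost and the log2 difference of Tyms was -1.63.

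Capillary EC were also set side by side between libraries, without a test. From Foxn1Lin female to Foxn1Lin male, 674 of 9205 genes with at least 50 UMIs were over 2-fold higher in the female (7.32%) and 279 lower (3.03%), with a median log2 ratio of -0.025. Pi16 and Dpt, fibroblast transcripts, were among the highest. Pi16 stood at 95.9 CPM (95% Poisson interval 87.2 to 105) against 0.794 CPM (0.0201 to 4.43), and at 451 against 42.5 CPM in free RNA of the same libraries. Dpt stood at 55.1 against 0.794 CPM, and at 296 against 149.995 CPM in free RNA. Their log2 ratios of 6.92 and 6.11 were 3.71 and 3.41 when cells were thinned before the gates. Of the markers of smooth muscle and pericytes with at least 50 UMIs, 7 of 7 were over 2-fold higher in the female (median log2 ratio 1.75). Sema3c, a semaphorin, stood at 1195 CPM (1164 to 1227) against 19.9 (12.9 to 29.3), and at 23.5 CPM in wild type male, a log2 ratio of 5.91 between the Foxn1Lin libraries that was 7.17 after that thinning. It was also high in other EC of Foxn1Lin female (914 CPM) and in its free RNA (2310 CPM).

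Among the genes lower in the female capillary EC, Sox18, an endothelial transcription factor, stood at 42.6 CPM (36.9 to 49.0) against 259.8 (232 to 290), and at 221 CPM in wild type male. Igfbp3 stood at 71.8 (64.3 to 79.97) against 388.5 CPM (355 to 425), with 333 CPM in wild type male. Zbtb16, a transcription factor that glucocorticoids induce, stood at 46.2 (40.3 to 52.9) against 359 CPM (327 to 394), but at 35.3 CPM in wild type male. Lrg1 stood at 21.9 against 150.2 CPM. Sox18 and Igfbp3 thus set the female library apart from both male ones, whereas Zbtb16 set the Foxn1Lin male apart. Each of these 4 genes had the same direction in other EC, with log2 ratios from -1.88 to -2.84. Of 16 lipid genes with at least 50 UMIs, 1 was over 2-fold higher and 3 lower in the female, led by Lpl (408.5 against 1285 CPM).

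From Foxn1Lin male to wild type male, 177 of 6961 genes were over 2-fold higher in Foxn1Lin male (2.54%) and 277 lower (3.98%), with a median log2 ratio of -0.088. Microvascular genes leaned to Foxn1Lin male, with 4 of 18 over 2-fold higher and 0 lower (median 0.56). Of the vein list 3 of 10 were over 2-fold higher and 0 lower (-0.37), and of shear stress genes 3 of 13 higher and 1 lower (-0.091). Other lists leaned to wild type male, with 0 genes over 2-fold higher in Foxn1Lin male. Over 2-fold lower there were 5 of 6 cell cycle genes (median -1.49), 4 of 14 of antigen presentation (-0.52) and 3 of 16 of VEGF and angiopoietin (-0.38). So were 5 of 6 T-lineage (-1.91) and 2 of 2 fibroblast markers (-1.52). Only 3 of 223 and 5 of 269 thinned capillary cells of Foxn1Lin male and wild type male had a Mki67 or Top2a UMI, with overlapping intervals. The part of other cells in these lists was not tested. Timp4 stood at 885 against 159 CPM, Rbp7 at 1224 against 326 and Lpl at 1285 against 312. Pth1r stood at 58.8 CPM (46.2 to 73.8) against 7.43 (3.84 to 13.0), with 51.8 CPM in Foxn1Lin female. Tnfsf9 (4-1BB ligand) stood at 60.4 (47.6 to 75.6) against 5.58 CPM (2.55 to 10.6), a log2 ratio of 3.44 that was 1.53 when cells were thinned before the gates. Among genes lower in Foxn1Lin male were T cell transcripts, of which Trbc1 had 0 against 216 UMIs, at least 56.1-fold higher in wild type male against a floor of 3 counts. Only 3 of 269 thinned capillary cells of wild type male had a UMI of Cd3e, Cd3d, Trbc1 or Trbc2, so they were held by few cells. Genotype and library cannot be told apart here.

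The lineage reporter was counted through the transgene transcript tdT-WPRE. Capillary EC had 252 reporter UMIs in Foxn1Lin female (54.2 CPM, 47.7 to 61.3) and 56 in the male library of that genotype (44.5 CPM, 33.6 to 57.8), against 0 in wild type male. Of cells thinned to 2000 UMIs, 12.6% of the Foxn1Lin female (129 of 1022, 10.6 to 14.8) and 8.97% of the Foxn1Lin male (20 of 223, 5.56 to 13.5) had a reporter UMI, as did 0 of 269 of wild type male, which allows a share of up to 1.12% by a floor of 3 cells and 1.36% by the exact interval. Before thinning the shares were 19.0% and 22.3% in the lineage trace libraries. Fibroblasts gated on Pdgfra, which should not have a Foxn1 history, had a reporter UMI in 4.65% and 5.07% of thinned cells at a median depth of 7347 and 9419.5 UMIs, and cells gated on Epcam in 67.6% and 78.9%.

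The capillary share thus lay above that of Pdgfra-gated cells beyond counting error in Foxn1Lin female, while in Foxn1Lin male the intervals overlapped (5.56 to 13.5 against 3.65 to 6.84). At least 2 reporter UMIs were found in 0.587% and 0% of thinned capillary cells, against 0.547% and 1.01% of Pdgfra-gated cells and 42.3% and 57.3% of Epcam-gated cells. At that threshold the capillary share in Foxn1Lin female was close to that of Pdgfra-gated cells, and in Foxn1Lin male it was below. Other EC had 12.3% and 13.3%, and vein-gated EC 13.2% and 6.47%, all with overlapping intervals to capillary EC of the same library. Free RNA held the reporter at 237 and 581 CPM, above the level in capillary EC. The part of free RNA in the capillary reporter UMIs was not tested.

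**Figure D5:**
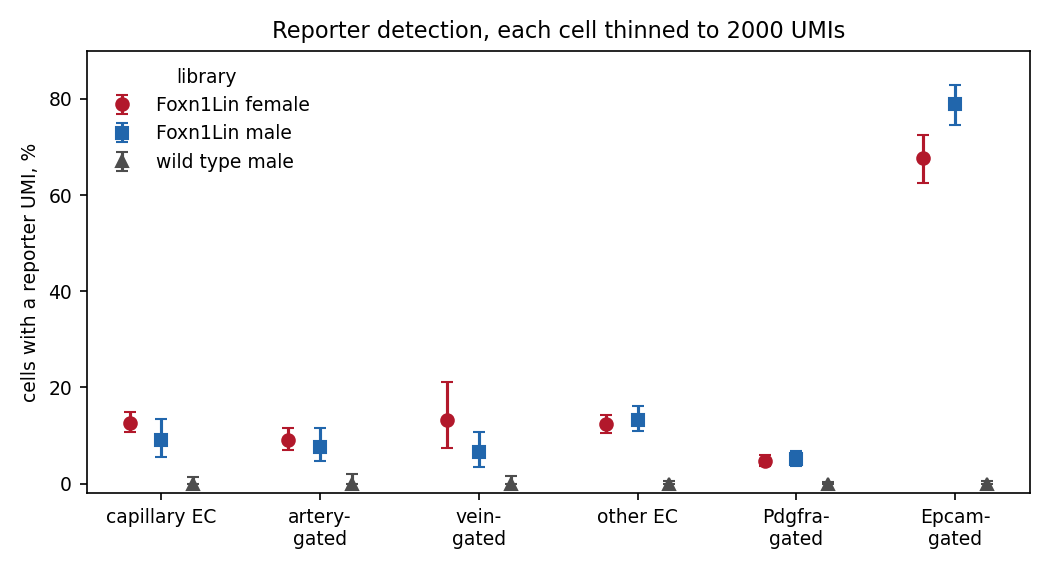
The percent of cells with a reporter UMI after thinning to 2000 UMIs (y axis) is plotted by class (x axis) and library with 95% Clopper-Pearson intervals. Capillary EC of Foxn1Lin female lie at 12.6%, those of Foxn1Lin male at 8.97% and those of wild type male at 0%, near the other EC classes and below Epcam-gated cells.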

How the data were processed

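Single-cell RNA libraries (10x Genomics) of CD45− thymic stroma were counted by the authors with Cell Ranger 7.01, per the labels, on mm10 (GRCm38.p5), with the tdTomato-WPRE transgene added to the reference. The deposited files hold raw UMI counts per gene and barcode, not normalized, once for the called barcodes and once for every barcode, with 1 library per file. The headers of the matrices of called barcodes name that version and those of every barcode another. That version counts intronic reads by default, and whether the default was kept is not given in the sources used here. Near-identical paralogs such as Hspa1a and Hspa1b may share reads. The call of cells was kept as deposited. Barcodes outside the called set with 134 to 533, 22 to 84 and 24 to 94 UMIs served as free RNA.

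The members, gates and gene lists were chosen with earlier results of these data known. Per library and class, UMIs were summed and compared with edgeR 4.0.16 in R 4.3.3 (TMM scaling, filterByExpr, quasi-likelihood test, library as a block, adjusted p under 0.05), a step tested on simulated data. The contrasts with vein-gated and artery-gated EC came from 1 fit of 9 sums and that with other EC from 6 sums. Genes were named by rule as the markers, the 12 largest differences in each direction with at least 100 UMIs and the same sign in every library, and members of fixed lists. Some list members are not reported here, and the lists' counts and medians leave them out. Ratios between libraries used genes with at least 50 UMIs. Thinning drew 2000 UMIs per cell without replacement and left out cells with fewer (Python 3.11.15, numpy 2.4.6). Intervals are exact (scipy 1.17.1). Doublets were scored with Scrublet in scanpy 1.11.5, which by its own threshold called 0, 15 and 1 barcodes. That threshold was taken as not having worked, no barcode was removed, and the highest scores (336, 148 and 218 barcodes) were left out as an alternative. Other alternatives were DESeq2 1.42.0, RLE scaling, no filter, no library block, stricter gates, other EC without Epcam or Pdgfra and leaving out each library. Promoters were read from RefSeq windows. Total counts per library were 53366016, 33386621 and 61258534 UMIs.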

Additional observations from a re-analysis of the deposited data

Results flagged for a closer look

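In 4 genes the difference between capillary EC and other EC went over 2-fold up in one library and over 2-fold down in another, which was not tested. Ccl5, a chemokine, had log2 ratios of -2.51 in Foxn1Lin female and 4.05 in Foxn1Lin male, which are 6.55 apart. Within capillary EC its log2 ratio of Foxn1Lin female over male was -3.01, -1.84 with the highest doublet scores left out and -1.67 when cells were thinned before the gates. Unc5c, a netrin receptor, had -1.95 and 1.07 in these libraries (3.02 apart), and Gdf15, a stress-induced cytokine, -1.30 and 1.05 (2.35 apart). In wild type male these 3 genes had too few UMIs for a ratio. Rhbdl2, a membrane protease, had 1.13 in Foxn1Lin male but -2.32 in Foxn1Lin female and -1.20 in wild type male, a span of 3.45.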

How the results depend on the processing

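Against other EC, the number of genes higher in capillary EC was 48 without the library block and 318 when cells were thinned before the gates. It was 252 with other EC free of Epcam and Pdgfra, and from 466 to 839 when each library was left out in turn. The number lower was 2763 with no filter, 359 without the block, 656 after thinning, 625 with other EC free of Epcam and Pdgfra, and from 1428 to 1919 with a library left out. Against vein-gated EC, the number higher was 809 with DESeq2, 334 without the block and 749 after thinning, and from 470 to 1310 with a library left out. The number lower was 604 without the block, 1045 after thinning, and from 885 to 1698 with a library left out. Against artery-gated EC, DESeq2 gave 2 higher and 26 lower, no filter 99 and 199, no block 0 and 1, and a gate with under 3 Cd36 and Gpihbp1 UMIs 252 and 145. Leaving out a library gave from 0 to 15 higher and from 1 to 37 lower. In each of these the cause was not tested. The comparisons of classes were paired within libraries by the library block. Between the libraries no paired analysis was possible, because each group is 1 library and the labels number no replicates.

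The share of EC was 68.5%, 47.8% and 47.3% after thinning, 55.1%, 27.9% and 33.6% of EC free of Epcam and Pdgfra, and 43.0% in Foxn1Lin female with at least 5 UMIs of Cd36 and Gpihbp1. Between Foxn1Lin female and male, 161 genes were higher and 103 lower by over 2-fold with at least 200 UMIs, and 350 were higher after thinning, while between the male libraries 62 and 72 passed with at least 200 UMIs. The median log2 ratio of the first pair turned to 0.017 under TMM scaling, and Csmd1 between the male libraries to -0.42 after thinning. The reporter share was 0.587% and 0% for at least 2 UMIs and 19.0% and 22.3% without thinning. Against other EC, Ccl7 turned to 0.076, Top2a to 0.050, Npr1 to -0.059 and Ramp2 to -0.045 with other EC free of Epcam and Pdgfra, and Hspe1 to 0.053 after thinning. DESeq2 did not call Car4, Lamc1, Mgp, Slc7a1 and Tek against vein-gated EC (adjusted p = 0.0667, 0.0514, 0.0645, 0.103 and 0.119). After thinning, Acsl1, Cavin3, Ctnnb1, Gbp4, Hspd1, Ifit3, Ifitm2, Ifitm3, Jag1, Lama5, Lamc1, Psmb10, Ptprb, Slc7a1 and Xaf1 did not pass against vein-gated EC (adjusted p from 0.0515 to 0.707), nor did Dll4, Flt1, Gata2, Hspb1, Icam2, Ifit2, Igfbp3, Jam2, Kitl, Klf2, Podxl, S1pr1 and Sox18 against other EC (adjusted p from 0.0706 to 0.376). Over the single genes and values named, 2619 values kept their direction and side of the threshold, 438 kept the direction and lost the call, 8 gained one and 16 moved. With 229 and 281 capillary cells, the male libraries limit what could be seen of rare transcripts.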
